A study of Mus musculus with 12 samples.

Results

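The Dlx and Msx homeobox genes were examined in C3H/10T1/2 cells that carried a BMP2 plasmid or 1 of 3 hybrid plasmids. The members are the 8 genes Dlx1, Dlx2, Dlx3, Dlx4, Dlx5, Dlx6, Msx1 and Msx2, taken by name from the 47643 genes listed in the count files. No cut on their values was applied, but earlier results of these data were known when they were chosen. Of the 8, 6 passed the filter on low counts and were tested among 13229 genes, and Dlx3 and Dlx4 did not. C3H/10T1/2 is an established line of mouse embryo cells of fibroblast shape, labelled by the submitters as sarcoma, and it is widely used as a model of mesenchymal progenitors. Cells received 0.5 µg of plasmid DNA per square cm with the polymer TurboFect, transiently and without a virus, and total RNA was taken 3 days later. The groups were BMP2ADV, the reference, and BMP2ADV20a, BMP2ADV148b and BMP2ADV590, with 3 libraries in each. The series title describes the last 3 as hybrid vectors for BMP2 and a miRNA, and their names carry the numbers of miR-20a, miR-148b and miR-590. By these names all 4 groups carried BMP2, and no untransfected cells were analysed here, so the response of these genes to BMP2 itself was not measured. Neither the share of transfected cells nor the use of separate cultures for replicates is stated in the labels, so p-values measure the spread between these libraries, which may be technical.

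Bone morphogenetic proteins bind paired receptor kinases that phosphorylate SMAD1, SMAD5 and SMAD9, which enter the nucleus with SMAD4 and switch on target genes. Several Dlx and Msx genes are among those targets in limb buds, facial mesenchyme and bone-forming cells. Both families encode DNA-binding homeodomain proteins that recognise short sites with a TAAT core. Dlx proteins mostly activate transcription and Msx proteins mostly repress it, and members of the 2 families can pair with each other. Dlx genes lie as convergent pairs that share enhancers, whereas Msx1 and Msx2 stand alone on different chromosomes.

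The deposited values were read counts per gene from 3' end sequencing, with 9236431 to 14727288 gene counts and 17086 to 18055 genes above 0 in a library. Levels below are CPM, a gene's count relative to all gene counts of its library, scaled by the library factors of the fit. The label of a mesenchymal line was checked against 8 markers, all tested, whose summed level was 15730 to 18190 CPM in the 12 libraries. Markers of other cell types summed to at most 62.2 CPM, the highest sum being that of adipocytes. Among them Cldn4, Adgre1, Cdh5, Myod1 and Plin1 were at 0 in all 12. Other markers passed the filter, 4 of 6 for adipocytes, 3 of 6 for macrophages and 3 of 9 for epithelial cells. So did 2 of 9 for neural, 1 of 5 for endothelial and 1 of 5 for skeletal muscle cells. In each of the 4 groups a library lay away from the others on the first or second principal component of the most variable tested genes. The first component held 16% of their variance. BMP2ADV590 replicate 2 lay at 10.4 on the second component, against -9.83 and -5.91. BMP2ADV replicate 3, in the reference of every main comparison, lay at -10.8 on the first, against -2.91 and -3.37, and at 6.15 on the second, against -3.99 and -8.31. BMP2ADV148b replicate 3 lay at -0.61 on the first, against -13.2 and -11.3. BMP2ADV20a replicate 3 lay at -1.27 on the second, against 11.8 and 8.81. By chi-square per gene, BMP2ADV replicate 3 differed from replicates 1 and 2 by 19.5 and 14.4, and those from each other by 6.89. In BMP2ADV590 this measure was 29.4 for replicates 1 and 2, 10.8 for replicates 2 and 3 and 10.5 for replicates 1 and 3, so it did not mark replicate 2 rather than replicate 1. The gene Gm42418 held 4.07% to 10.04% of gene counts in a library. It held 10.04% in BMP2ADV replicate 3, against 5.8% and 6.3% in replicates 1 and 2. In BMP2ADV590 replicates 1, 2 and 3 it held 4.99%, 8.99% and 7.06%. BMP2ADV148b replicate 3 held 4.07%, against 7.41% and 6.3%, while BMP2ADV20a libraries held 8.08% to 8.43%. Calls that turn on a library are given with and without it. In bulk RNA, more cells expressing a gene and more RNA per cell cannot be told apart, which holds for every level below.

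The homeobox defines both families, and its most DNA-facing stretch codes for the recognition helix, the third helix of the homeodomain, which lies in the major groove. To show how alike some Dlx family members are there, the sequences cover Dlx5 and its genomic partner Dlx6, and Dlx1 and Dlx4. They give the codons of homeodomain residues 46 to 55 from the GENCODE M21 transcripts on GRCm38, 5′ to 3′ on the coding strand. The codons of residues 48 to 53 are in capitals. Dlx2 and Dlx3 are not shown, so the likeness is that of the listed genes and not of the whole family.
Dlx1 (chr2:71532267-71532296, plus strand): aagataTGGTTCCAGAACAAACGCtccaag
Dlx4 (chr11:95141437-95141466, minus strand): aagatcTGGTTTCAGAACAAACGCtccaaa
Dlx5 (chr6:6878456-6878485, minus strand): aaaatcTGGTTTCAGAACAAAAGAtccaag
Dlx6 (chr6:6867044-6867073, plus strand): aagataTGGTTTCAGAATAAGCGCtctaag
Over the whole homeobox of 180 bases, identity between pairs of Dlx genes ran from 66.1% to 81.7% (15 pairs, median 72.2%). Msx1 and Msx2 shared 82.2% of their bases, and a Dlx and an Msx gene shared 54.4% to 65.0% (12 pairs). The partners of a genomic pair were not the closest in sequence: Dlx2 and Dlx3 shared 81.7%, while Dlx1 and Dlx2 shared 73.9% and Dlx5 and Dlx6 73.3%. The libraries read mainly the 3' ends of transcripts, which lie downstream of the homeobox.

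In GENCODE M21 coordinates, Dlx1 (chr2:71528113-71533981) and Dlx2 (chr2:71543408-71546754) point at each other across 9426 bases. Dlx5 (chr6:6877805-6882085) and Dlx6 (chr6:6863334-6868568) do so across 9236 bases, and Dlx3 (chr11:95120119-95125296) and Dlx4 (chr11:95140447-95146263) across 15150. Msx1 lies at chr5:37820485-37824583 and Msx2 at chr13:53466884-53473074. Counts were very uneven within the pairs. Summed over the 12 libraries, Dlx2 held 11003 counts, 48.3% of all counts of the 8 genes, and Dlx1 held 3126. Dlx5 held 3626 and its partner Dlx6 held 187. Dlx3 held 63 and Dlx4 held 7. Msx1 held 3926 and Msx2 held 826. These are reads at 3' ends and were not set against transcript length, so they describe how well each gene was measured rather than an order of abundance. By mean CPM, Dlx2 ranked 2454 among the 13229 tested genes, Msx1 5739, Dlx5 5960, Dlx1 6463, Msx2 9711 and Dlx6 12018. The third mouse Msx gene, Msx3, which is known from the neural tube and is not a member here, had at most 7 counts in a group.

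**Figure D1:**
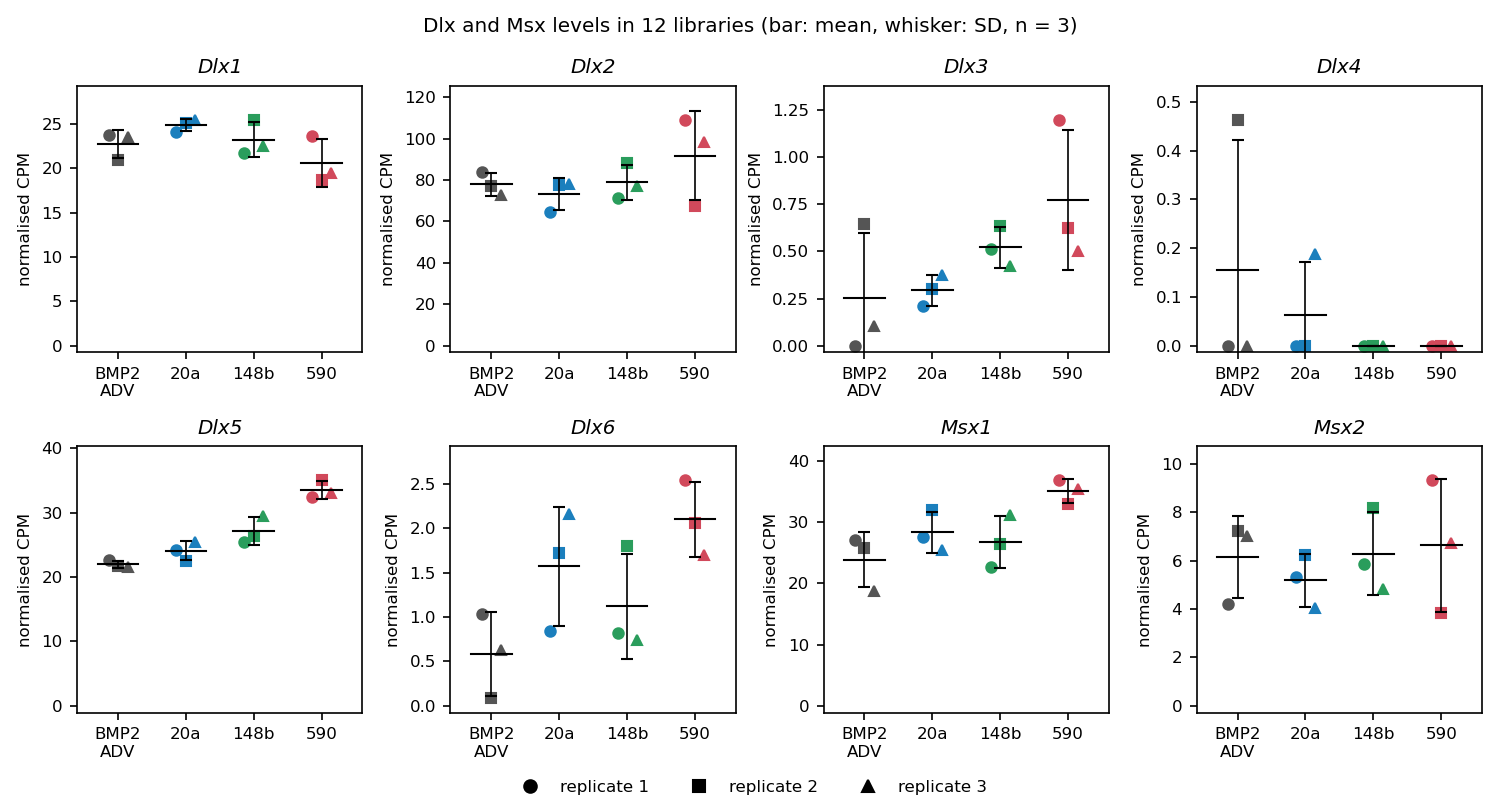
Normalised CPM of the 8 Dlx and Msx genes (vertical axes, each panel with its own scale) in the 4 groups, 3 libraries each, with replicate 1 as a circle, replicate 2 as a square and replicate 3 as a triangle; bars are means and whiskers the SD. Dlx5 and Msx1 in BMP2ADV590 lie above every BMP2ADV library, and Dlx2 in BMP2ADV590 spreads from 67.7 to 109.1 CPM.

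Dlx5, an activator that promotes osteoblast and chondrocyte differentiation, rose in BMP2ADV590 by 1.52-fold over BMP2ADV. Its level was 22.6, 21.8 and 21.6 CPM in the BMP2ADV libraries and 24.2, 22.5 and 25.5 CPM in BMP2ADV20a. In BMP2ADV148b it was 25.5, 26.4 and 29.5 CPM, and in BMP2ADV590 it was 32.5, 35.0 and 33.0 CPM. The 3 BMP2ADV590 libraries were the highest of the 12, and they overlapped with no other group. Group means were 22.0 ± 0.558 CPM for BMP2ADV, 24.1 ± 1.49 for BMP2ADV20a, 27.2 ± 2.13 for BMP2ADV148b and 33.5 ± 1.35 for BMP2ADV590 (SD, n = 3 each). For BMP2ADV590 against BMP2ADV the log2 fold change was 0.61 (SE 0.12, 95% interval 0.36 to 0.85), with an adjusted p of 0.00164 by edgeR's quasi-likelihood test. It passed in each of the 12 fits that left out 1 library, at log2 fold changes of 0.57 to 0.62 and adjusted p of up to 0.0116. Dlx5 was also the member called for any difference among the 4 groups (adjusted p = 0.00638), as were 6.25% of all tested genes. Neural cells, in which Dlx genes are known, had a marker sum of 17.9 to 23.0 CPM in BMP2ADV590 against 10.4 to 14.8 CPM in BMP2ADV, with 2 of 9 markers tested. In BMP2ADV20a, where Dlx5 stood at 24.1 CPM, that sum was 18.1 to 28.6 CPM. Endothelial markers summed to 5.51 to 6.81 CPM in BMP2ADV590 against 7.85 to 12.6 CPM in BMP2ADV, and skeletal muscle markers to 9.53 to 10.7 against 12.9 to 16.5 CPM. The part of such transcripts in the Dlx5 difference was not tested.

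The order of Dlx5 levels was BMP2ADV, BMP2ADV20a, BMP2ADV148b and BMP2ADV590, and no neighbouring pair in that order passed the test. BMP2ADV20a lay 0.13 above BMP2ADV on the log2 scale (95% interval -0.12 to 0.37, adjusted p = 0.777), and BMP2ADV148b lay 0.17 above BMP2ADV20a (interval -0.07 to 0.42, adjusted p = 0.788). BMP2ADV590 lay 0.30 above BMP2ADV148b (interval 0.06 to 0.55, adjusted p = 0.161). Across a wider step, BMP2ADV590 exceeded BMP2ADV20a by 0.48 (SE 0.12, interval 0.24 to 0.72, adjusted p = 0.0297). That call was lost when BMP2ADV20a replicate 1 or 2 was left out (adjusted p = 0.143 and 0.144) or BMP2ADV590 replicate 1, 2 or 3 (0.0653, 0.0578 and 0.0892). It was also lost when only these 2 groups were fitted (0.475 on the log2 scale, adjusted p = 0.058). BMP2ADV148b lay 0.30 above BMP2ADV without overlap (SE 0.12, interval 0.06 to 0.55), and its adjusted p was 0.471.

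Dlx6 is the genomic partner of Dlx5 and shares functions with it in jaw and limb development. It was counted at 1 to 36 reads per library, and passed the filter through its higher libraries. Counts were 14, 1 and 6 in BMP2ADV, 12, 23 and 23 in BMP2ADV20a, 8, 17 and 7 in BMP2ADV148b and 36, 23 and 17 in BMP2ADV590. All 3 BMP2ADV590 libraries exceeded all 3 BMP2ADV libraries, at 2.10 ± 0.421 CPM against 0.585 ± 0.473 (SD, n = 3). The log2 fold change was 1.79, with a 95% interval from 0.53 to 3.05 and an adjusted p of 0.072, so the difference did not pass. It passed by DESeq2 (1.82, adjusted p = 0.0396), with no filter (1.79, adjusted p = 0.0473) and without BMP2ADV replicate 1 (2.55, adjusted p = 0.0478). In the other fits that left out 1 library it did not pass, with estimates down to 1.30 and adjusted p up to 0.277. BMP2ADV20a stood at 1.57 ± 0.670 CPM and BMP2ADV148b at 1.12 ± 0.594 CPM (SD, n = 3), with adjusted p of 0.479 and 0.759 against BMP2ADV. Dlx6os1, a noncoding gene on the opposite strand whose span covers Dlx6 without sharing exon bases, had 1 to 14 counts per library. Dlx6os2, which shares 104 exon bases with Dlx6, was at 0 in all 12.

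Dlx1 and Dlx2, best known from forebrain interneurons and the first branchial arch, were measured more deeply than Dlx6 but neither passed in any comparison. Dlx2 stood at 84.1, 76.9 and 72.8 CPM in BMP2ADV, at 64.6, 77.6 and 78.3 CPM in BMP2ADV20a, and at 71.4, 88.2 and 77.1 CPM in BMP2ADV148b. In BMP2ADV590 it stood at 109.1, 67.7 and 98.3 CPM: replicates 1 and 3 were the highest of all 12 libraries and replicate 2 was the second lowest. The difference from BMP2ADV was 0.24 on the log2 scale (95% interval -0.03 to 0.50, adjusted p = 0.312). Without BMP2ADV590 replicate 2 it was 0.41 and passed (adjusted p = 0.017), as did the differences from BMP2ADV20a (0.50, adjusted p = 0.00728) and BMP2ADV148b (0.40, adjusted p = 0.0299). Without BMP2ADV590 replicate 1 the difference from BMP2ADV shrank to 0.08 (adjusted p = 0.796 by edgeR). Without BMP2ADV590 replicate 3 that difference was 0.18 (adjusted p = 0.568), and neither passed. With all 12 libraries the interval ran from 0.978-fold to 1.42-fold.

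Dlx1 varied little. Its levels were 23.7, 20.9 and 23.6 CPM in BMP2ADV, 24.1, 25.1 and 25.4 CPM in BMP2ADV20a, 21.7, 25.5 and 22.5 CPM in BMP2ADV148b and 23.6, 18.6 and 19.4 CPM in BMP2ADV590. The highest and lowest of the 12 libraries, 25.5 and 18.6 CPM, were 1 library each of BMP2ADV148b and BMP2ADV590. The log2 fold change in BMP2ADV590 was -0.14, and its interval of -0.42 to 0.13 allows a fold of 0.75 to 1.10. The 3 BMP2ADV20a libraries lay above all BMP2ADV libraries, but by 0.13 on the log2 scale only (adjusted p = 0.803). Dlx1as, an antisense gene whose span covers Dlx1 and which shares 335 exon bases with it, had 0 to 5 counts per library. The strand setting of the counting is not stated, so reads of Dlx1 and Dlx1as in those bases may not have been told apart. The ratio of Dlx2 to Dlx1 counts was 3.54, 3.67 and 3.09 in BMP2ADV and 4.61, 3.63 and 5.06 in BMP2ADV590. Its mean log2 was 2.14 ± 0.248 in BMP2ADV590 and 1.78 ± 0.132 in BMP2ADV (SD, n = 3), and the groups overlapped. An exact two-sided permutation test gave p = 0.2 for this ratio, where 3 libraries against 3 cannot go below 0.1; it gave 0.2 for BMP2ADV20a and 0.9 for BMP2ADV148b.

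Dlx3 and Dlx4 were at the edge of detection. Dlx3, known from skin, teeth and bone, had counts of 0, 7 and 1 in BMP2ADV, 3, 4 and 4 in BMP2ADV20a, 5, 6 and 4 in BMP2ADV148b and 17, 7 and 5 in BMP2ADV590. Its summed level was 0.236 CPM in BMP2ADV (exact Poisson 95% interval 0.102 to 0.465) and 0.821 CPM in BMP2ADV590 (0.550 to 1.18), intervals that cover counting error only. Of the 29 counts in BMP2ADV590, 17 came from replicate 1, and the libraries overlapped with those of BMP2ADV, where replicate 2 held 7 of the 8 counts. Dlx4 had 5 counts in BMP2ADV, all in replicate 2, and 2 in BMP2ADV20a, all in replicate 3. It had 0 in the other two groups, which allows up to 0.105 CPM in BMP2ADV148b and 0.0850 CPM in BMP2ADV590 (3 counts over the group). No difference in Dlx4 was detectable at this depth. Dlx4os, an antisense gene that shares 79 exon bases with Dlx4, had 1 count in all 12 libraries.

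Msx1, a repressor that keeps mesenchymal progenitors of the face, teeth and limb from differentiating, rose in BMP2ADV590 by 1.46-fold. Its levels were 27.1, 25.8 and 18.7 CPM in BMP2ADV and 36.8, 32.9 and 35.4 CPM in BMP2ADV590. They were 27.5, 32.0 and 25.4 CPM in BMP2ADV20a and 22.6, 26.4 and 31.2 CPM in BMP2ADV148b. The 3 BMP2ADV590 libraries were the highest of the 12, and the lowest of them, at 32.9 CPM, lay just above the highest BMP2ADV20a library, at 32.0 CPM. Group means were 23.9 ± 4.50 CPM for BMP2ADV, 28.3 ± 3.39 for BMP2ADV20a, 26.8 ± 4.31 for BMP2ADV148b and 35.1 ± 2.01 for BMP2ADV590 (SD, n = 3 each). The log2 fold change of BMP2ADV590 was 0.55 (SE 0.14, 95% interval 0.25 to 0.85, adjusted p = 0.0185 by edgeR). It did not pass without BMP2ADV replicate 3, the lowest library (0.41, adjusted p = 0.135), without BMP2ADV590 replicate 1 (0.50, adjusted p = 0.0598) or without BMP2ADV590 replicate 3 (0.54, adjusted p = 0.057). Msx1 lay 0.31 higher in BMP2ADV590 than in BMP2ADV20a (interval 0.01 to 0.60, adjusted p = 0.324) and 0.39 higher than in BMP2ADV148b (interval 0.09 to 0.69, adjusted p = 0.142), neither of which passed. BMP2ADV20a and BMP2ADV148b lay 0.24 and 0.16 above BMP2ADV, with adjusted p of 0.606 and 0.822.

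Msx2, its close relative with roles in skull growth and osteoblast commitment, was spread widely within every group. Its levels were 4.21, 7.23 and 7.02 CPM in BMP2ADV, 5.32, 6.21 and 4.03 CPM in BMP2ADV20a, 5.84, 8.17 and 4.84 CPM in BMP2ADV148b and 9.32, 3.85 and 6.71 CPM in BMP2ADV590. The highest and the lowest of the 12 libraries were both BMP2ADV590 libraries. The log2 fold change in BMP2ADV590 was 0.13 with an interval of -0.49 to 0.75 (adjusted p = 0.871), wide enough to hold a rise as large as that of Msx1. Whether Msx1 and Msx2 responded differently was not tested.

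The promoters of Msx1 and Msx2 are shown because 1 of this closely related pair passed and the other did not. Both are RefSeq sequences on GRCm38.p6, 250 bases before to 50 after the start, 5′ to 3′ on the coding strand. The homeodomain motif TAATTA, which is longer than the TAAT core, is in capitals where present.
Msx1 (chr5:37824536-37824835, minus strand): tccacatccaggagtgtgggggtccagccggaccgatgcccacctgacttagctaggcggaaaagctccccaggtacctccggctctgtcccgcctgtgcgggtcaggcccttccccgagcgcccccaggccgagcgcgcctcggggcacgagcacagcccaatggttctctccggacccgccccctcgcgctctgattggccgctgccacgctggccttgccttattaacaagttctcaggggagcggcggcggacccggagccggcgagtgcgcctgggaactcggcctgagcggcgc
Msx2 (chr13:53472731-53473030, minus strand): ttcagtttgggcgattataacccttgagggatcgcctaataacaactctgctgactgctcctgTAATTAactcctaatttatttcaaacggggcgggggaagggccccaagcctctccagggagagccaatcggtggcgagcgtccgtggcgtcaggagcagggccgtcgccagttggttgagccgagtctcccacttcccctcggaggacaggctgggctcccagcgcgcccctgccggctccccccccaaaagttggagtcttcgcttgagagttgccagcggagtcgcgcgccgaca
Of the 8 members, 4 had an entry in that table: Dlx1, Dlx2, Msx1 and Msx2. Motifs were searched on both strands in all 32851 promoters of that length. GGCGCC, a GC-rich motif of SMAD1 and SMAD5, was in 11.9% of promoters and in that of Dlx2. CAGAC, the SMAD-binding element, was in 49.6% and in that of Dlx2. Within the 250 bases before the start alone, CAGAC was in 42.2% of promoters and in 0 of the 4 members. TAATTA was in 5.29% and in that of Msx2, while the Msx1 and Dlx1 windows held none of the motifs searched. The shorter TAAT core was not searched, so windows without TAATTA can still hold it. The GC content was 70.0% for Msx1 and 61.0% for Msx2, against a median of 52.7% over all promoters. The Dlx1 and Msx2 windows lie inside the GENCODE M21 spans given above, so their RefSeq starts are not the outer ends of those spans. These matches are descriptions of a short window, and nothing about binding was measured.

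Set side by side, the hybrid plasmids differed in how many members passed against BMP2ADV, but so did the share of all genes that passed. In BMP2ADV590, Dlx5 and Msx1, 2 of the 6 tested members, were called, both higher, where 8.26% of the 13229 tested genes were called, 4.37% higher and 3.89% lower. Dlx5, Dlx6 and Msx1 had no overlap with BMP2ADV, as had 25.1% of tested genes. In BMP2ADV20a, 0 of 6 were called by edgeR, DESeq2 or limma-voom, and Dlx6 alone had an unadjusted p under 0.05. The background there was 0.476%, with 0.0983% higher and 0.378% lower, and 1306 genes had an unadjusted p under 0.05. Dlx1 did not overlap, as for 16.5% of genes. In BMP2ADV148b, 0 of 6 were called by any of the 3 tools, and Dlx5 alone had an unadjusted p under 0.05. The background was 0.249%, with 0.212% higher and 0.0378% lower, and 1115 genes had an unadjusted p under 0.05. Dlx5 did not overlap, as for 14.7% of genes. The 3 comparisons share the BMP2ADV libraries, so a low value in the reference enters all of them.

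Between hybrids, Dlx5 was the member called in BMP2ADV590 against BMP2ADV20a, with a background of 2.17%. Dlx1, Dlx5 and Msx1 did not overlap there, as for 19.1% of genes. Against BMP2ADV148b, 0 of 6 were called by edgeR, DESeq2 or limma-voom, with a background of 4.43%, although Dlx5 and Msx1 had an unadjusted p under 0.05, as had 2261 of the 13229 genes, and did not overlap, as for 20.8%. Between BMP2ADV148b and BMP2ADV20a, 0 of 6 were called by any of the 3 tools, 0 had an unadjusted p under 0.05, and 0.559% of all genes were called. Dlx5 did not overlap, as for 14% of genes, with its nearest libraries both at 25.5 CPM.

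**Figure D2:**
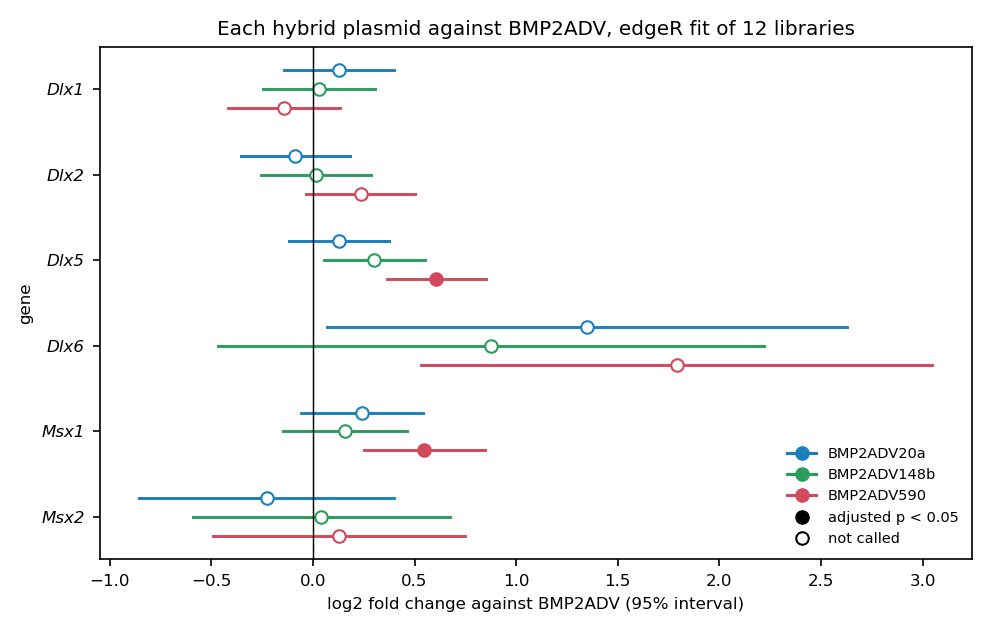
Log2 fold change of the 6 tested members (horizontal axis) in each hybrid group against BMP2ADV, with 95% intervals of the edgeR fit to 12 libraries; filled points passed at an adjusted p of 0.05. The filled points are Dlx5 (0.61) and Msx1 (0.55) in BMP2ADV590, and the widest intervals are those of Dlx6.

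**Figure D3:**
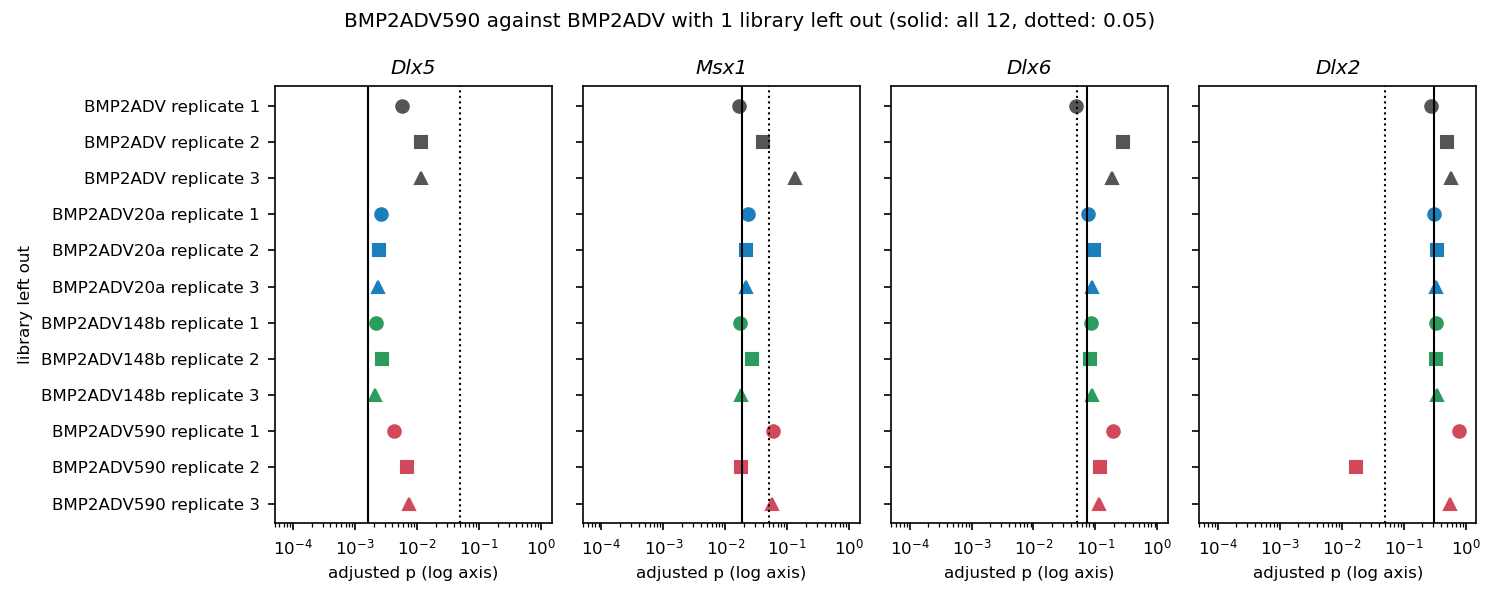
Adjusted p (log axis) of Dlx5, Msx1, Dlx6 and Dlx2 in BMP2ADV590 against BMP2ADV when the library named on the left is left out; the solid line is the value with all 12 libraries and the dotted line is 0.05. Dlx5 stays at or under 0.0116 in every fit, Msx1 crosses 0.05 in 3 fits, Dlx6 passes without BMP2ADV replicate 1, and Dlx2 passes without BMP2ADV590 replicate 2.

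For the miRNAs after which the hybrids are named, sites in the members' 3' UTRs were counted, since a miRNA acts by pairing its seed, bases 2 to 8, with such sites. The mature mouse sequences are from RefSeq (GRCm38.p6), with the seed in capitals. The labels do not give the arm or the species carried by a plasmid, so both arms are shown for miR-20a and miR-148b.
miR-20a-5p (chr14:115044183-115044205): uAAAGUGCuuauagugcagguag
miR-20a-3p (chr14:115044219-115044240): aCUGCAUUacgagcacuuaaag
miR-148b-5p (chr15:103285148-103285171): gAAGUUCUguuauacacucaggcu
miR-148b-3p (chr15:103285185-103285206): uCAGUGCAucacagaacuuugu
The 4 seeds differ from one another. GCACTTT, the site of miR-20a-5p, was in the longest annotated 3' UTR of 15.1% of the 11583 tested genes that have one and in 0 of the 8 members. AGAACTT, that of miR-148b-5p, was in 15.7% and also in 0 members. AATGCAG, that of miR-20a-3p, was in 13.5% and TGCACTG, that of miR-148b-3p, in 15.8%, each in Dlx1 alone among the members. Both Dlx1 sites lie in its 3' UTR of 1462 bases, with the site in capitals.
Dlx1, site for miR-20a-3p (chr2:71533319-71533347, plus strand): tacttggctgaAATGCAGaaagggaaaac
Dlx1, site for miR-148b-3p (chr2:71532931-71532959, plus strand): tgtctccttttTGCACTGtctgtgcgccg
Dlx1 stood at 24.9 ± 0.655 CPM in BMP2ADV20a and 23.2 ± 1.97 CPM in BMP2ADV148b against 22.7 ± 1.56 CPM in BMP2ADV (SD, n = 3), and neither difference passed. The intervals allow a fold of 0.905 to 1.32 in BMP2ADV20a and 0.843 to 1.24 in BMP2ADV148b. miR-590 was not searched here, so Dlx5 and Msx1 were not examined for its sites.

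Around the members, other genes of the BMP pathway moved in part in BMP2ADV590. Of 18 tested BMP-SMAD targets other than the members, 6 were higher and 0 lower, with a median log2 fold change of 0.17, where the median of all tested genes was 0.00196 and 4.37% of them were higher and 3.89% lower. Hey1, a repressor downstream of both BMP and Notch, rose from 84.9 ± 9.24 to 162.4 ± 6.45 CPM (SD, n = 3, log2 fold change 0.93, adjusted p = 1.66e-06). Bambi, a decoy receptor that dampens BMP signals, rose by 0.69 (adjusted p = 0.00164). Grem1, a secreted BMP antagonist, rose by 0.52 (adjusted p = 0.00288), and Tbx2, a T-box repressor, by 1.00 (adjusted p = 0.00297). Of 15 tested ligands, receptors, SMADs and extracellular regulators, 2 were higher and 1 lower, with a median of 0.0174. Bmpr2, the type II receptor, rose by 0.40 (adjusted p = 0.00335), and Bmp4, a ligand, fell by 0.53 (adjusted p = 0.00181). Bmp2 rose from 1.30 ± 0.527 to 5.05 ± 0.687 CPM (1.91, adjusted p = 0.0021). In BMP2ADV20a Bmp2 lay 1.35 above BMP2ADV on the log2 scale and did not pass (adjusted p = 0.16 by edgeR). Whether transcripts of the plasmid were counted as Bmp2 is not known here. If they were, they cannot be told apart from cellular Bmp2 transcripts in these counts. The number called in the target list ran from 4, without BMP2ADV590 replicate 1, to 7, without BMP2ADV590 replicate 2, when 1 library was left out, and that in the pathway list from 3 to 4. Hey1 also lay 0.41 above BMP2ADV in BMP2ADV20a and 0.40 above it in BMP2ADV148b (adjusted p = 0.0604 and 0.102 by edgeR). Grem1 lay 0.42 above BMP2ADV in BMP2ADV20a (adjusted p = 0.0913), and none of these passed. Medians of the target list were 0.0571 in BMP2ADV20a and 0.0721 in BMP2ADV148b.

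Cartilage and bone genes, the programmes in which Dlx and Msx factors act, were counted next. Against the same background of 4.37% higher and 3.89% lower, 10 of 11 tested chondrocyte genes were higher and 0 lower (median 0.81), among them Col10a1, the collagen of hypertrophic cartilage (1.36, adjusted p = 7.32e-06), and Hapln1, the cartilage link protein (1.23, adjusted p = 7.96e-06). Mef2c rose by 0.67 (adjusted p = 1.56e-05) and Sox9, the master regulator of cartilage, by 0.77 (adjusted p = 2.87e-05). Of 11 tested osteoblast genes 0 were called by edgeR, DESeq2 or limma-voom, with a median of 0.0249 and a range from -0.38 to 1.53. Of the 11, 2 had an unadjusted p under 0.05, as had 2809 of the 13229 tested genes. The target, chondrocyte and osteoblast lists were also examined in earlier work on these libraries, so their direction is not independent evidence. When 1 library was left out, 9 to 10 chondrocyte genes and 0 osteoblast genes were called.

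Other homeobox genes are set against the 8.26% of all tested genes called in BMP2ADV590. Of 17 tested homeobox genes of skeletal and facial mesenchyme outside the Dlx and Msx families, 0 were higher and 1 was lower (median -0.08). The lower one was Six4, at 38.0 ± 1.98 CPM in BMP2ADV590 and 60.5 ± 1.88 CPM in BMP2ADV (SD, n = 3, log2 fold change -0.67, adjusted p = 0.000146). Of 39 Hox cluster genes 9 were tested, and 2 were higher: Hoxa3 by 0.60 (adjusted p = 0.00164) and Hoxc9 by 1.83, from 1.83 ± 0.797 to 6.64 ± 0.341 CPM (adjusted p = 0.00287). Of 6 known protein partners of Dlx and Msx factors, such as Maged1 and Tle1, 0 were called by edgeR, DESeq2 or limma-voom. Their log2 fold changes ran from -0.05 to 0.31, and 1 had an unadjusted p under 0.05, as had 2809 of the 13229 tested genes. In BMP2ADV20a 0 of the 87 tested genes of the 7 lists were called by edgeR or limma-voom and 3 by DESeq2. There edgeR called 0.476% of all tested genes. The share of all genes called by DESeq2 is not given here, for BMP2ADV20a or for BMP2ADV148b. Of the 87, 19 had an unadjusted p under 0.05, as had 1306 of the 13229 tested genes. List medians ran from -0.09 to 0.19. In BMP2ADV148b edgeR called 1 gene of the 7 lists, DESeq2 2 and limma-voom 0, where edgeR called 0.249% of all tested genes. Of the 87, 11 had an unadjusted p under 0.05, as had 1115 of the 13229 tested genes. The gene called by edgeR was Bmp2, at 5.36 ± 2.58 CPM against 1.30 ± 0.527 in BMP2ADV (2.00, adjusted p = 0.0326). That call was lost on leaving out any library of BMP2ADV, or either of replicates 2 and 3 of BMP2ADV148b (highest adjusted p 0.212).

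**Figure D4:**
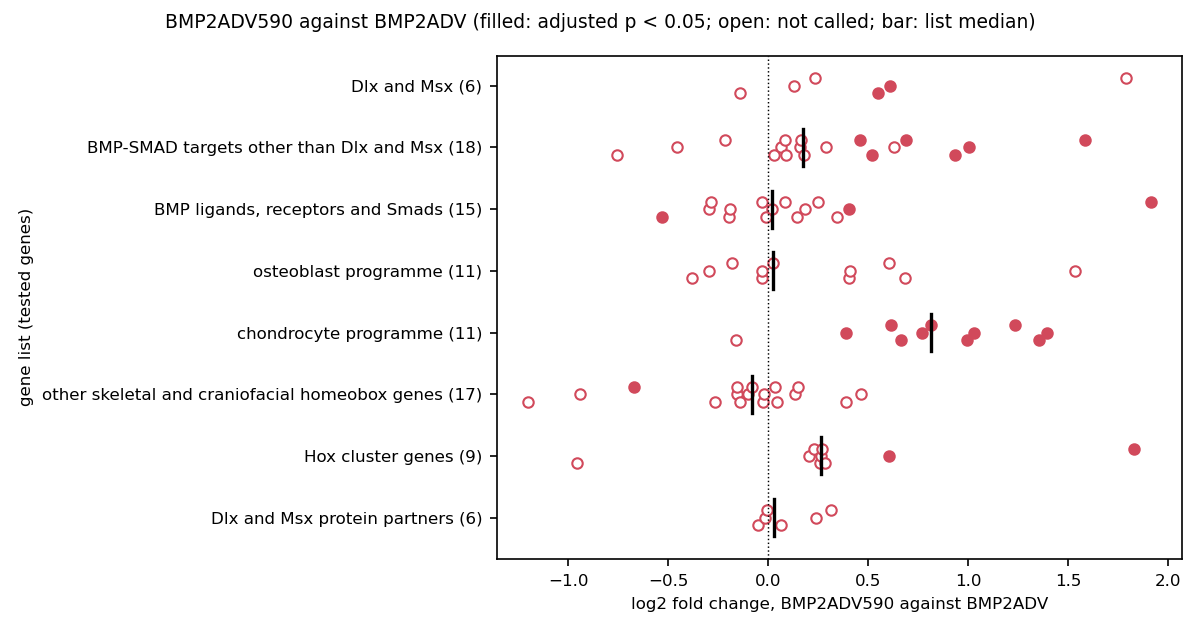
Log2 fold change in BMP2ADV590 against BMP2ADV (horizontal axis) of each tested gene in the Dlx and Msx families and in 7 related lists, with the number tested in brackets; filled points passed at an adjusted p of 0.05 and bars are the medians of the 7 lists. Of the chondrocyte genes 10 of 11 are filled on the right, while 0 of 11 osteoblast genes are filled.

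Across the 12 libraries the members did not follow one common pattern. Correlations of log2 CPM are given as descriptions, over libraries that share groups and scaling. Dlx5 and Msx1 had a Pearson r of 0.71 and a Spearman rho of 0.65, and r was 0.195 once group means were removed. Dlx5 and Dlx6 gave r of 0.58 and rho of 0.56, and 0.0042 within groups. Dlx1 and Dlx2 went the other way, with r of 0.08 and rho of 0.29 over all libraries and 0.73 within groups. Msx1 and Msx2 gave r of 0.03 and rho of 0.035. Among 8492 genes with a mean of at least 10 CPM, those most like Dlx5 were Myo1d (r = 0.96), a myosin, Boc (r = 0.95), a Hedgehog co-receptor, and Timp3 (r = 0.95), an inhibitor of metalloproteinases. For Msx1 they were Map3k5 (r = 0.96), Mtus1 (r = 0.95) and Clec14a (r = 0.94). For Dlx2 they were Sipa1l1 (r = 0.96), Hr (r = 0.95) and Fzd1, a Wnt receptor (r = 0.94), and for Dlx1 Acin1, Cnot11 and Xpo5 (r = 0.89, 0.89 and 0.88). The closest to Dlx6 were Scamp2, Tmed2 and Ctsa (r = 0.92, 0.91 and 0.91), and to Msx2 Arf4, Abhd17b and Dcaf1 (r = 0.895, 0.89 and 0.88). With so many genes searched over 12 libraries, high values arise for every member, including those that did not differ between groups.

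Genes next to the members were counted as well. Within 100 kb of a member GENCODE M21 lists 29 other genes, of which 28 are in the files and 8 were tested. In BMP2ADV590 1 of the 8 was called, where 8.26% of all tested genes were. It was Cytl1, a secreted protein known from cartilage, 80665 bases from Msx1. Its levels were 29.1, 21.2 and 16.96 CPM in BMP2ADV and 35.5, 37.7 and 32.8 CPM in BMP2ADV590, without overlap (log2 fold change 0.65, SE 0.15, adjusted p = 0.00924). It did not pass without BMP2ADV replicate 2 or replicate 3 (adjusted p up to 0.0754).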

How the data were processed

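The authors deposited counts per gene, without normalisation, 1 table per library. Per the labels' protocols, libraries were made with the QuantSeq 3' mRNA FWD kit. Per the submitters' processing notes, FastQC 0.11.5, STAR 2.5.2a, HTSeq 0.6.0, DESeq2 3.11 and the build GRCm38 were used. The strand setting and annotation used for counting were not given in the sources used here. Lines naming no gene, 52.2% to 54.4% of records, were left out.

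Symbols came from GENCODE M21 (47224 of 47643 genes). In R 4.3.3 with edgeR 4.0.16, 1 mean per group was fitted to all 12 libraries with TMM scaling and filterByExpr, and p-values of the quasi-likelihood F-test were adjusted by Benjamini-Hochberg over 13229 genes and called at 0.05. Fold changes used a prior count of 0.125. Alternatives used DESeq2 1.42.0 and limma 3.58.1. Tested on simulated data (BMP2ADV590 against BMP2ADV, 13024 genes), 43 of 67 changes of 1.5-fold, 63 of 67 of 2-fold and 66 of 66 of 4-fold were recovered, with 6 of 12824 unchanged genes called. The changed genes were drawn only above a minimum mean CPM that Dlx6 does not reach. The recovery therefore does not cover Dlx3, Dlx4 or Dlx6. The members and lists were chosen with earlier results of these data known. All members, their antisense genes, called neighbours within 100 kb, up to 4 called genes per list and comparison by smallest p, and the 3 closest genes by r are named. The recognition-helix sequences of the other 4 members and the values of 1 marker gene are not reported here.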

Additional observations from a re-analysis of the deposited data

How the results depend on the processing

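The 36 comparisons of a member were recomputed with DESeq2, limma-voom, 2 other scalings, no filter, a stricter filter, without Gm42418 and mitochondrial genes, with only the 2 groups compared and with a replicate block. Of 323 such values 319 kept their direction and side of the threshold and 0 reversed. Of 432 values with 1 library left out, 407 did so and 13 reversed. Members called for any difference among the groups, 1 in all, were 2 by DESeq2, 2 with no filter and 1 to 2 with 1 library left out. In BMP2ADV590 against BMP2ADV, 1 to 3 were called with 1 library left out; against BMP2ADV148b, 0 to 1; and against BMP2ADV20a, 0 to 1, with 0 when only the 2 groups were fitted and 0 under the replicate block, where the log2 fold change of Dlx5 was 0.48 (adjusted p = 0.0562), against 0.48 without the block. Replicate numbers did not pair the libraries (same-number r -0.265 to 0.172 over 18 pairs, and 1 of 12 libraries correlated best with its own number), and the block changed no other count of members called. Differences that changed sign with 1 library left out, none of them called, were for BMP2ADV148b against BMP2ADV Dlx1 (-0.041 to 0.077), Dlx2 (-0.071 to 0.084) and Msx2 (-0.19 to 0.20), for BMP2ADV20a Dlx2 (-0.14 to 0.0025), for BMP2ADV590 Msx2 (-0.22 to 0.40), for BMP2ADV590 against BMP2ADV148b Msx2 (-0.26 to 0.36) and for BMP2ADV148b against BMP2ADV20a Msx1 (-0.21 to 0.022). The share of all tested genes called in each alternative fit is not given here. A changed count of members called in such a fit is therefore not particular to the members. Counts of list genes with 1 library left out were added after seeing the data. Depth limits Dlx3, Dlx4 and Dlx6 most.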
